A study of Mus musculus with 39 samples.

Results

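The miR-148 and miR-152 family of the mouse was followed here in the heart by small RNA sequencing, from 3 hairpin genes, Mir148a, Mir148b and Mir152. The members were the rows of each count file whose name began with one of those 3 gene names, both mature arms and the sense strand only, which gave 6 arms out of 1684 features (1499 sense and 185 antisense) listed in any of the files. All 39 libraries were made from FVB/NJ mice of wild-type genotype (FVB/NJ is an inbred strain) with no treatment and no altered allele in any group. RNA was taken with Trizol from frozen tips of the ventricles, although the tissue tag reads whole heart. The 23 male libraries comprised 2 of 4 weeks, 3 of 5 weeks, 12 of 6 weeks, 1 of 7 weeks, 4 of 8 weeks and 1 of 16 weeks. The 16 female libraries comprised 6 of 6 weeks, 3 of 7 weeks, 2 of 8 weeks and 5 of 9 weeks. No label says whether libraries of a group came from separate hearts, and the p-values below therefore reflect the scatter among these libraries, part of which may be technical. The questions the groups allow are whether the arms differ with age within each sex and between the sexes at 6 weeks.

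A microRNA hairpin is cut into a duplex of a 5p and a 3p arm, and usually one of the arms is loaded into an Argonaute protein while the other is degraded. The loaded arm finds messenger RNAs mainly through its seed, bases 2 to 8 from the 5′ end. The 3p arms of this family are the loaded arms in most tissues. Published targets include Dnmt1, the maintenance DNA methyltransferase. The family's messenger RNA targets were not measured here.

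The mature sequences from RefSeq (GRCm38.p6) are shown first because the family is defined by them; capitals mark the seed, and all 6 arms matched a RefSeq entry at the same coordinates as in the count files.

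miR-148a-3p: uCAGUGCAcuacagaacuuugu

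miR-148b-3p: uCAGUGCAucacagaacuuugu

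miR-152-3p: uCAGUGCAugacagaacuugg

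miR-148a-5p: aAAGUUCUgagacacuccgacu

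miR-148b-5p: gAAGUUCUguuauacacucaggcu

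miR-152-5p: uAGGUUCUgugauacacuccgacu

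The 3 3p arms share the seed CAGUGCA, and no other of the 1679 mature mouse names in the RefSeq table carries it. Counted from 1 at the 5′ end, miR-148b-3p differs from miR-148a-3p by C9U and U10C and is otherwise identical over 22 bases. miR-152-3p differs from miR-148a-3p by C9U, U10G and U20G over 21 bases and is 1 base shorter. The 3 arms thus differ at bases just behind the seed, unlike microRNAs with identical mature copies. Whether the deposited counts keep their reads fully apart was not tested, since the aligner and its handling of mismatches are not stated. On the 5p side, miR-148a-5p and miR-148b-5p share the seed AAGUUCU, whereas miR-152-5p has AGGUUCU, so the family relation of the 3p arms does not extend to all of the 5p arms. The hairpins are given next to show where the arms lie, in capitals, with the 5p arm first.

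Mir148a: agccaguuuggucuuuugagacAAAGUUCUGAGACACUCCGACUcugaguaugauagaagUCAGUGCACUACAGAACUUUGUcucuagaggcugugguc

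Mir148b: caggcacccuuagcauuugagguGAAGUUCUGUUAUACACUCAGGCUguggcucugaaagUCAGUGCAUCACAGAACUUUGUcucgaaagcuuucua

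Mir152: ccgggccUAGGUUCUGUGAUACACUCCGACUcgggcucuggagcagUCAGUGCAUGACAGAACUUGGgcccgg

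The 3 genes lie on 3 chromosomes. Mir148a (chr6:51269812-51269910, minus strand, GRCm38) is intergenic in GENCODE vM21, where the nearest annotated gene is the long noncoding RNA Gm32479, 13622 bases away. Mir148b (chr15:103285125-103285221, plus strand) lies in intron 1 of Copz1 in all 4 annotated transcripts that span it, on the same strand. Mir152 (chr11:96850393-96850465, plus strand) lies in intron 1 of Copz2 in all 3 transcripts that span it, also on the same strand. Copz1 and Copz2 encode the zeta subunits of coatomer, the coat of vesicles that move between the Golgi and the endoplasmic reticulum. No exon of either host gene overlaps the hairpin.

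The libraries held 1788245 to 14563754 counts (median 8410768). 4 libraries gave over 40% of their counts to 1 arm: males of 6 weeks, replicates 2 and 6, and the female of 6 weeks, replicate 1, to miR-143-3p, and the female of 7 weeks, replicate 2, to miR-378a-3p. The shallowest library was the female of 8 weeks, replicate 2, in which the 7 arms of the red blood cell list (miR-451, miR-144 and both miR-486 genes) summed to a level of 404953, against 48455 to 249775 in the other libraries (levels are CPM, counts scaled to the same file total). In that library miR-486b-5p alone held 22.5% of the counts. The sum mostly reads miR-486: miR-486-5p and miR-486b-5p averaged 53832 and 58906 CPM over the 39 libraries, against 4057 CPM for miR-451-5p. The files carry no batch label. The libraries were divided into 7 sets, a chosen number, by how counts were split between genes that encode an identical mature sequence (7 gene pairs, none of them in this family). Set 1 held all males of 4 and 5 weeks with 1 female of 6 weeks, set 2 held 5 of the males of 6 weeks, and set 7 held the females of 9 weeks alone. Sets 3 and 4 mixed the sexes at 6 weeks (set 3 also at 7 weeks), set 5 held 4 libraries of 7 and 8 weeks, and set 6 held 3 of the 4 males of 8 weeks, the male of 16 weeks and the shallow female library. Age and library set therefore overlap strongly, which limits all comparisons of ages below. As a marker check of the tissue, the 12 arms of the heart muscle list (miR-1, miR-133a, miR-208a, miR-208b and miR-499) summed to 55800 to 161227 CPM. Most of that sum is miR-133a-2-3p, with a mean of 75932 CPM.

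miR-148a-3p dominated the family. Its level averaged 16762 ± 4041 CPM (SD, n = 39), which ranked 14 among the 1684 features by mean level. miR-148b-3p averaged 664 ± 151 CPM (rank 77) and miR-152-3p averaged 221 ± 106 CPM (rank 114). The order miR-148a-3p, miR-148b-3p, miR-152-3p held in all 39 libraries, with a median ratio of 24.3 between the first pair and 3.09 between the second. Of the summed 3p counts of the family, which share 1 seed, miR-148a-3p made up 94.7% ± 2.24 (SD), miR-148b-3p 4.07% ± 2.09 and miR-152-3p 1.26% ± 0.546. The lowest share of miR-148a-3p, 83.7%, was in the shallow female library of 8 weeks, and without it the range over 38 libraries was 90.5% to 96.5%. The mature arms are 21 to 24 bases long and each count stands for 1 arm, so no length scaling was applied. How well the adapters join to each arm was not measured, which limits levels set side by side between arms.

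The 5p arms were far lower. miR-148a-5p averaged 56 ± 12.3 CPM, miR-152-5p 48.8 ± 9.62 CPM and miR-148b-5p 19.0 ± 4.46 CPM. miR-152-3p was above miR-148a-5p in every library, and miR-152-5p was above miR-148b-5p in every library. Between them, miR-148a-5p and miR-152-5p did not keep an order: miR-148a-5p was higher in 25 libraries and not in the other 14. The count behind a value ranged from 5168 to 349002 for miR-148a-3p, from 69 to 4659 for miR-152-3p and from 9 to 340 for miR-148b-5p, so the last is the least precise. The files also list antisense rows for 3 of the arms, which held at most 3 counts in any library.

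**Figure D1:**
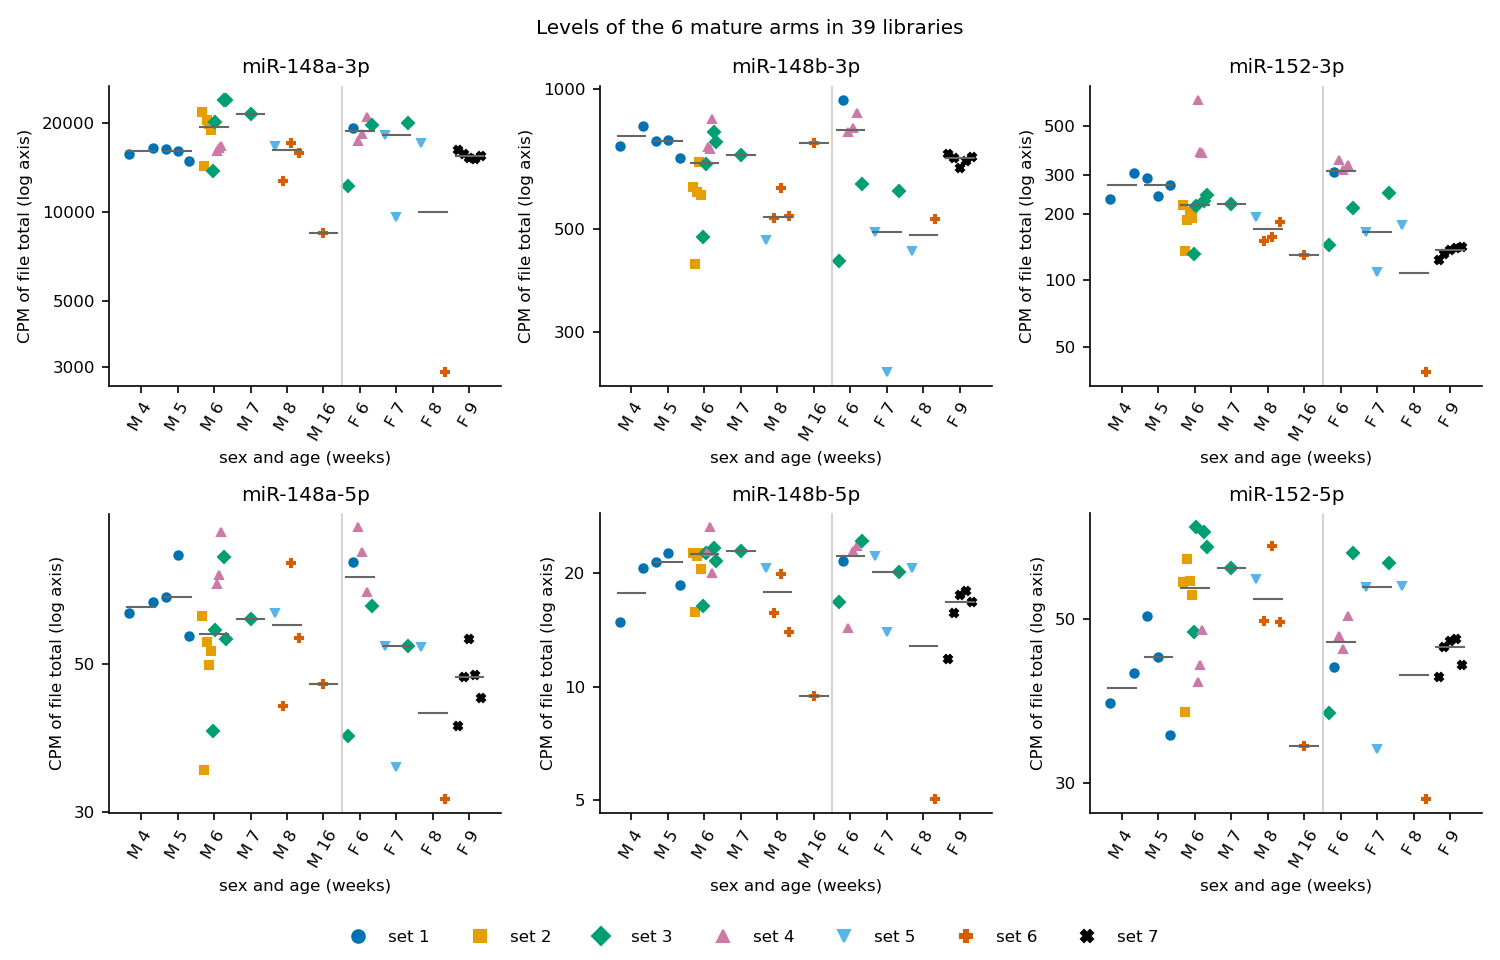
Level of each arm in CPM of the file total (log axis) against sex (M male, F female) and age in weeks; each point is 1 library, its colour and shape give the library set, and the grey bar is the group median. miR-148a-3p lies between 8494 and 24070 CPM in all but the female of 8 weeks, replicate 2, which is at 2890 CPM.

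In males between 4 and 8 weeks, miR-148b-3p fell with age while miR-148a-3p, the abundant arm, showed no called slope over the whole span. At 4 weeks miR-148b-3p stood at 756 and 834 CPM, and at 5 weeks at 773, 778 and 711 CPM. The 12 males of 6 weeks ranged from 419.8 to 862 CPM with a median of 694 CPM, and the male of 7 weeks was at 721 CPM. The lowest values at 6 weeks, 419.8 CPM in replicate 2 and 481 CPM in replicate 6, came from the libraries in which miR-143-3p took over 40% of counts. The 4 males of 8 weeks were at 473, 528, 613 and 532.5 CPM. All 4 were below all 5 of the males of 4 and 5 weeks, and the males of 6 weeks spanned both. How many of all features separate the same groups was not counted, here or for the separations of levels given below. The fitted slope was -0.22 ± 0.04 log2 per week (SE; edgeR quasi-likelihood test on 22 libraries, adjusted p = 0.000575). It was called with DESeq2 too, among 128 of 346 features. With total counts in place of TMM factors it was called (-0.14, edgeR adjusted p = 0.0452) among 96 of 346 features. But it was -0.04 once the library set entered as a term (edgeR adjusted p = 0.884). Over 6 to 8 weeks alone it was -0.18 (adjusted p = 0.071), and the male of 16 weeks, which was not in the fit, stood at 766 CPM.

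Of the 6 arms, miR-148b-3p was the only one called in males, against 35% of the 346 features tested (21.4% called lower and 13.6% called higher), so the share of the family that was called is not above the background. With total counts the split of all called features turned from 47 higher and 74 lower to 61 higher and 35 lower, and 0 of 346 were called after a term for the library set was added (edgeR; 20 at an unadjusted p under 0.05). The library set and age cannot be told apart over the whole span, since no library of 4 or 5 weeks shares a set with a male of 6 weeks or older. Within set 1, where males of 4 and 5 weeks can be compared, the slope of miR-148b-3p was -0.02 ± 0.13 (adjusted p = 0.964), and within set 3, males of 6 and 7 weeks, it was -0.09 ± 0.11 (adjusted p = 0.996).

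miR-152-3p had the steepest fitted slope of the family in males, -0.26 ± 0.11 log2 per week, and missed the threshold (edgeR adjusted p = 0.0616). It stood at 232 and 307 CPM at 4 weeks and at 290, 241 and 269 CPM at 5 weeks. At 6 weeks it ranged from 131 to 655 CPM with a median of 218 CPM, with its highest value in replicate 8, and the male of 7 weeks was at 220.0 CPM. The lowest, 131 CPM, was in replicate 6 of 6 weeks, in which miR-143-3p took over 40% of counts. At 8 weeks it was at 193, 151, 156 and 183 CPM, below all 5 of the youngest males. DESeq2 called it (-0.26, adjusted p = 0.0282) among 128 of 346 features. Leaving out the male of 6 weeks with 655 CPM, replicate 8, gave -0.25 (edgeR adjusted p = 0.00824), in a fit that called 124 of 346. Leaving out male replicate 1 of 4 weeks (adjusted p = 0.0388) or male replicate 3 of 6 weeks (adjusted p = 0.049) also brought the edgeR value under the threshold. With the library set as a term the slope was 0.01 (adjusted p = 0.992).

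miR-148a-3p had its highest male values at 6 weeks, in libraries of sets 2 and 3. It stood at 15707 and 16458 CPM at 4 weeks and at 16364, 16084 and 14977 CPM at 5 weeks. At 6 weeks it ranged from 13850 to 24070 CPM (median 19431 CPM), and the 3 libraries of set 4 at that age were at 16179 to 16777 CPM. The lowest value, 13850 CPM, was in replicate 6, in which miR-143-3p took over 40% of counts. At 7 weeks it was at 21519 CPM. At 8 weeks it was at 16728, 12814, 17181 and 15836 CPM, and at 16 weeks at 8494 CPM, the lowest male value. The groups of 5 weeks or younger and of 8 weeks thus overlapped, and both overlapped the lower part of the males of 6 weeks. The linear slope over 4 to 8 weeks was -0.08 ± 0.03 (adjusted p = 0.0793), and without male replicate 1 of 4 weeks it was -0.10 (adjusted p = 0.0359). Over 6 to 8 weeks it was -0.16 ± 0.04 and past the threshold (edgeR adjusted p = 0.0199), in a fit that called 38 of 342 features. With total counts the slope over the whole span was -0.0022 (adjusted p = 0.974), and after a term for the library set was added it was -0.01 (adjusted p = 0.991). No male of 8 weeks shares a set with a male of 6 or 7 weeks, so the slope over 6 to 8 weeks cannot be told apart from the sets.

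The male 5p arms had slopes of -0.11 ± 0.05 for miR-148a-5p (adjusted p = 0.0878), -0.11 ± 0.05 for miR-148b-5p (adjusted p = 0.0818) and 0.04 ± 0.04 for miR-152-5p (adjusted p = 0.474), by edgeR. None was called, and only miR-152-5p had a positive estimate. Without male replicate 1 of 4 weeks the slope of miR-148b-5p was -0.16 (adjusted p = 0.0132). With the library set as a term the slopes were 0.04, 0.14 and 0.00157 in the same order, none called.

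In females between 6 and 9 weeks no arm of the family was called, against 3.02% of 331 features tested. miR-152-3p again had the steepest slope, -0.27 ± 0.09 log2 per week (edgeR adjusted p = 0.0832). Its 6 values at 6 weeks ran from 145 to 349 CPM with a median of 312 CPM. At 7 weeks it was at 165, 108 and 247 CPM, and at 8 weeks at 178 and 38.6 CPM. The 5 females of 9 weeks were at 124, 131, 138, 141 and 142 CPM, all below the lowest female of 6 weeks, replicate 1, at 145 CPM. Some other fits called the slope, and each of these called a larger share of all features than the main fit. DESeq2 called it (-0.26, adjusted p = 0.0291) among 48 of 331 features. Without the shallow female replicate 2 of 8 weeks, edgeR called it (-0.25, adjusted p = 0.00874) among 75 of 328 features. As a choice made after seeing the data, that library and the dominated ones were left out. edgeR then called the slope of miR-152-3p (-0.27, adjusted p = 0.00515) among 82 of 325 features. With the library set as a term its estimate was 0.12 (adjusted p = 0.791). The 5p arm of the same hairpin had an estimate of opposite sign, 0.05 ± 0.04 for miR-152-5p, which DESeq2 also called (0.07, adjusted p = 0.013).

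The other 3p arms gave no one-way course in females. miR-148b-3p ranged from 426 to 951 CPM at 6 weeks (median 818 CPM), stood at 491, 245 and 605 CPM at 7 weeks and at 447 and 525 CPM at 8 weeks. At 9 weeks it was at 725, 710.4, 678, 702 and 715 CPM, so the oldest females were above all 5 libraries of 7 and 8 weeks. The lowest value, 245 CPM, came from the library in which miR-378a-3p took over 40% of counts. The lowest at 6 weeks, 426 CPM, came from replicate 1, in which miR-143-3p took over 40%. miR-148a-3p ranged from 12273 to 20974 CPM at 6 weeks (median 18859 CPM), stood at 18217, 9664 and 20043 CPM at 7 weeks, at 17159 and 2890 CPM at 8 weeks and between 15177 and 16295 CPM at 9 weeks. The slopes were 0.07 ± 0.08 for miR-148b-3p (adjusted p = 0.744) and -0.00465 ± 0.0871 for miR-148a-3p (adjusted p = 0.983), and after a term for the library set was added they were -0.04 and 0.04, neither called.

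The shallow female library of 8 weeks set the lowest value of 5 of the 6 arms. It held 2890 CPM of miR-148a-3p and 38.6 CPM of miR-152-3p, while its 525 CPM of miR-148b-3p were within the range of the other libraries. Its ratio of miR-148a-3p to miR-148b-3p was 5.5, against 11.1 in the male of 16 weeks and 19.5 to 39.4 in the other 37 libraries. The sum of the heart muscle list in that library was 161227 CPM, the highest of all, and that of the endothelial list (miR-126) 11430 CPM, the lowest. The part of depth and of blood content in its values was not tested.

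**Figure D2:**
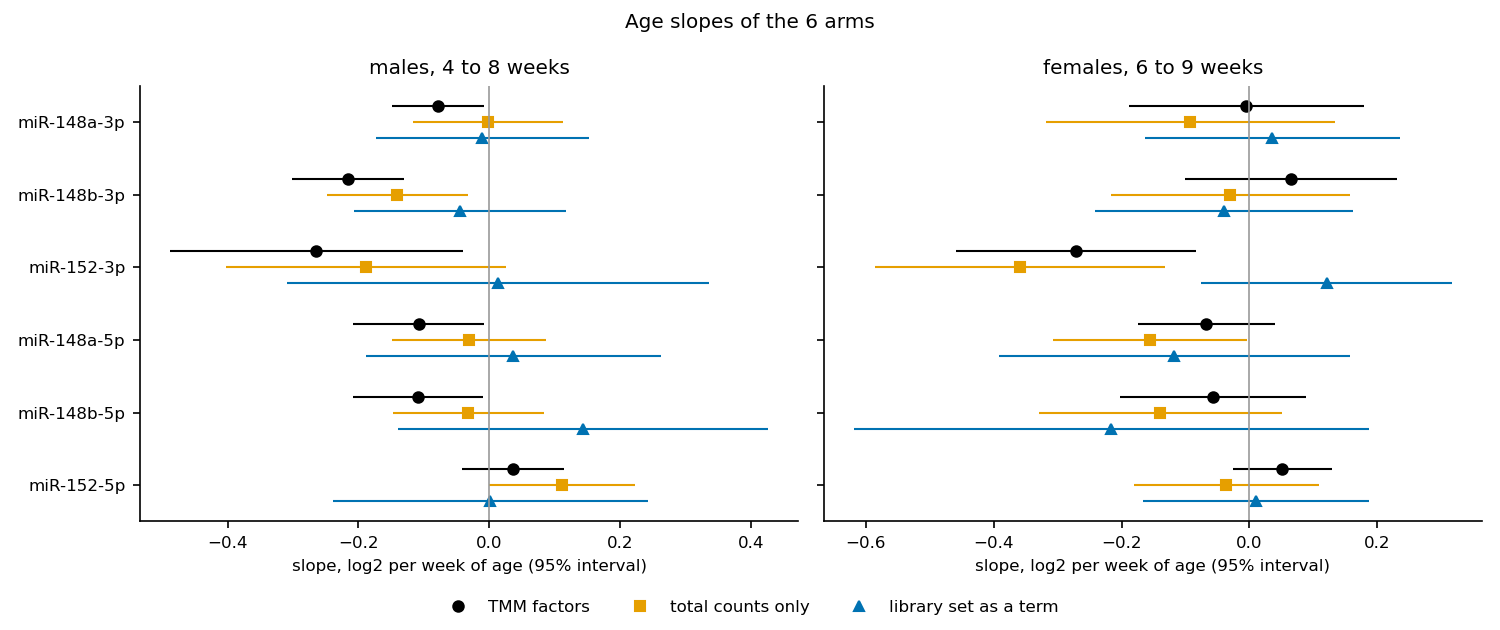
Age slope of each arm (log2 per week) with its 95% interval from edgeR, in males of 4 to 8 weeks (22 libraries) and females of 6 to 9 weeks (16 libraries), with TMM factors, with total counts only and with a term for the library set. With TMM factors miR-148b-3p in males is at -0.22, while after a term for the library set was added the intervals of all 6 arms include 0 in both sexes.

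The sexes at 6 weeks did not differ past the threshold in any arm. The test called 0% of the 339 features (edgeR; 25 at an unadjusted p under 0.05, and 0 with DESeq2, 31 unadjusted). The estimates, female minus male in log2 from 6 and 12 libraries, were 0.23 ± 0.13 for miR-148a-5p and 0.22 ± 0.12 for miR-148b-3p (both adjusted p = 0.478), and -0.02 ± 0.07 for miR-148a-3p (adjusted p = 0.905). The 95% interval for miR-148a-3p, -0.17 to 0.13, was the narrowest of the 6, and that for miR-152-3p, -0.48 to 0.70, the widest. Within set 4, which held 3 females and 3 males of 6 weeks, miR-152-3p was at 316, 332 and 349 CPM in females and at 376, 381 and 655 CPM in males. The 2 groups did not overlap there, but the adjusted p within that set was 0.489 and within set 3 the estimate was -0.01.

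The difference between the female and male slopes over 6 to 8 weeks was not called for any arm, against 2.02% of 346 features. For miR-148a-3p it was -0.21 ± 0.15 log2 per week (edgeR adjusted p = 0.426), and this value rested on the 2 females of 8 weeks. Without replicate 1 it was -0.51 (adjusted p = 0.0232), in a fit that called 89 of 346 features. Without the shallow replicate 2 it was 0.09 (adjusted p = 0.438). With the library set as a term it was -0.46 (adjusted p = 0.0263), in a fit that called 27.2% of all features. The other arms lay between -0.29 for miR-152-3p and 0.02 for miR-152-5p.

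Ratios between arms of the same library do not depend on how libraries are scaled, and they showed how the 3 seed-sharing arms shifted against each other. 6 ratios (3 between the 3p arms and the 3p to 5p ratio at each locus) were compared in 3 contrasts by two-sided exact permutation tests, 18 comparisons in all. 6 of the 18 passed after Benjamini-Hochberg adjustment, each with adjusted p = 0.026, and the groups did not overlap in any of these 6. How many ratios between other arms separate the same groups was not counted, so the lack of overlap has no background to stand against. In males, miR-148a-3p per miR-148b-3p was 19.7, 20.7, 20.8, 21.1 and 21.2 at 4 and 5 weeks and 24.3, 28.0, 29.7 and 35.4 at 8 weeks. The difference of 0.49 log2 corresponds to a 1.41-fold higher ratio at 8 weeks (exact p = 0.00794, the smallest that 4 against 5 libraries allow). miR-148a-3p per miR-152-3p was 53.7 to 67.7 at 4 and 5 weeks and 85.0 to 109.9 at 8 weeks, a 1.53-fold rise (0.61 log2, exact p = 0.00794). miR-148b-3p per miR-152-3p, which ran from 2.64 to 3.26 and from 2.45 to 3.92, did not differ past the threshold (0.12 log2, adjusted p = 0.497). Leaving out any 1 of the 9 libraries kept the sign of both called differences (0.40 to 0.58 and 0.53 to 0.66 log2), but 8 of the 9 omissions put the adjusted p at 0.0536 to 0.0857, with fewer regroupings possible, and only that of replicate 4 of 8 weeks left it under the threshold (0.0459).

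In females of 9 weeks against 6 weeks, both ratios with miR-152-3p differed and the ratio of the other 3p arms did not pass the threshold. miR-148a-3p per miR-152-3p was 50.1 to 92.6 at 6 weeks and 107.9 to 131 at 9 weeks, a 1.73-fold higher ratio (0.79 log2, exact p = 0.00433, adjusted p = 0.026). miR-148b-3p per miR-152-3p was 2.31 to 3.10 at 6 weeks and 4.92 to 5.85 at 9 weeks, a 1.90-fold higher ratio (0.93 log2, exact p = 0.00216, adjusted p = 0.026). miR-148a-3p per miR-148b-3p was 20.3 to 31.5 at 6 weeks and 21.6 to 22.5 at 9 weeks, with overlap and no call (-0.14 log2, adjusted p = 0.423). None of the 6 ratios differed past the threshold between the sexes at 6 weeks, where adjusted p ran from 0.223 to 0.984.

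**Figure D3:**
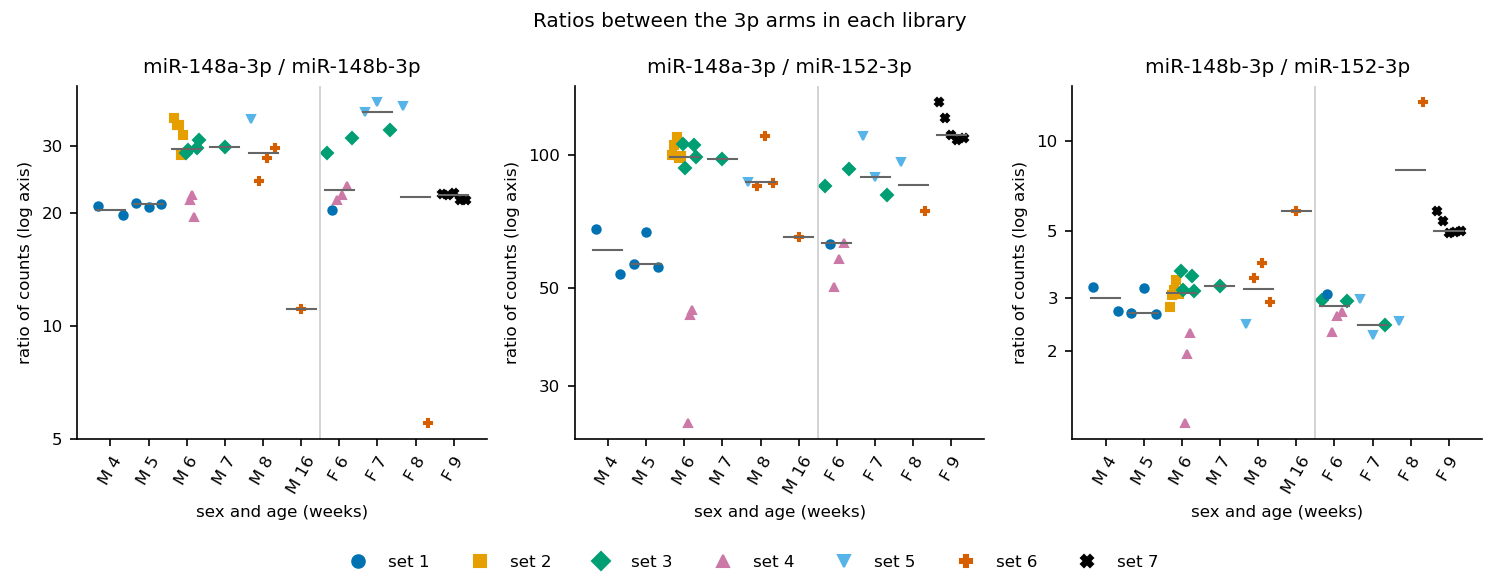
Ratio of counts between each pair of 3p arms (log axis) against sex and age in weeks; each point is 1 library, colour and shape give the library set, and the grey bar is the group median. At 6 weeks in males, miR-148a-3p per miR-148b-3p is 19.5 to 22.3 in the 3 libraries of set 4 and 28.5 to 35.7 in the 9 libraries of sets 2 and 3.

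The ratios that separated the ages also differed between library sets at a single age, though by unlike amounts. Among the 12 males of 6 weeks, miR-148a-3p per miR-148b-3p was 19.5 to 22.3 in the 3 libraries of set 4 and 28.5 to 35.7 in the 9 of sets 2 and 3. miR-148a-3p per miR-152-3p was 24.7 to 44.6 in those 3 and 93.4 to 109 in those 9. In females of 6 weeks, miR-148a-3p per miR-148b-3p, which was not called there by age, was 21.7 to 23.5 in the 3 libraries of set 4. It was 28.8 to 31.5 in the 2 of set 3 and 20.3 in the 1 of set 1. miR-148a-3p per miR-152-3p was 50.1 to 63.2 in set 4, 84.7 to 92.6 in set 3 and 62.9 in set 1. miR-148b-3p per miR-152-3p was 2.31 to 2.68 in set 4, 2.94 in set 3 and 3.10 in set 1. All of these last values were below the 4.92 to 5.85 of the females of 9 weeks. Males of 8 weeks against males of 6 weeks gave differences of 0.03 log2 for miR-148a-3p per miR-148b-3p and 0.22 log2 for miR-148a-3p per miR-152-3p. Neither was past the threshold (permutation test, adjusted p = 0.93 and 0.786). No set held both ages of either age contrast, so for these ratios age and library set cannot be told apart.

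The loci differed in how much of their output was the 5p arm. At Mir148a the 5p arm made up 0.355% ± 0.138 (SD, n = 39) of the counts of the locus, at Mir148b 2.91% ± 0.88 and at Mir152 20.3% ± 6.69. The largest single value at Mir152, 42.5%, was in the shallow female library, and the smallest, 5.92%, in the male of 6 weeks, replicate 8. Every library had a higher 5p share at Mir152 than any library had at Mir148b, whose highest was 5.39%.

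At Mir152 the ratio of the arms differed between the ages compared in both sexes. The ratio of miR-152-3p to miR-152-5p was 5.42, 5.73, 6.00, 7.25 and 7.69 in males of 4 and 5 weeks and 2.48, 3.02, 3.40 and 3.69 in males of 8 weeks. The ratio fell by 1.03 on the log2 scale, a 2.04-fold difference (exact p = 0.00794, adjusted p = 0.026). Leaving out 1 library gave falls of 0.92 to 1.11, with an adjusted p of 0.0536 to 0.0857 in 8 of the 9 omissions and 0.0459 without male replicate 4 of 8 weeks. In females it was 3.46 to 7.34 at 6 weeks and 2.85 to 3.27 at 9 weeks, and it fell by 0.91 on the log2 scale (exact p = 0.00866, adjusted p = 0.026). At Mir148a and Mir148b no contrast passed the threshold, and the largest difference there was -0.36 log2 for miR-148b in males of 8 against 4 to 5 weeks (adjusted p = 0.143; 0.0459 without male replicate 4 of 8 weeks). As with the ratios between 3p arms, the males of 6 weeks divided by set, with 7.79 to 15.9 in set 4 and 2.72 to 3.9 in sets 2 and 3. The values of set 4 in males of 6 weeks were above those of all 5 males of 4 and 5 weeks. Females of 6 weeks were at 6.57 to 7.34 in set 4, 7.13 in set 1 and 3.46 to 3.87 in set 3.

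**Figure D4:**
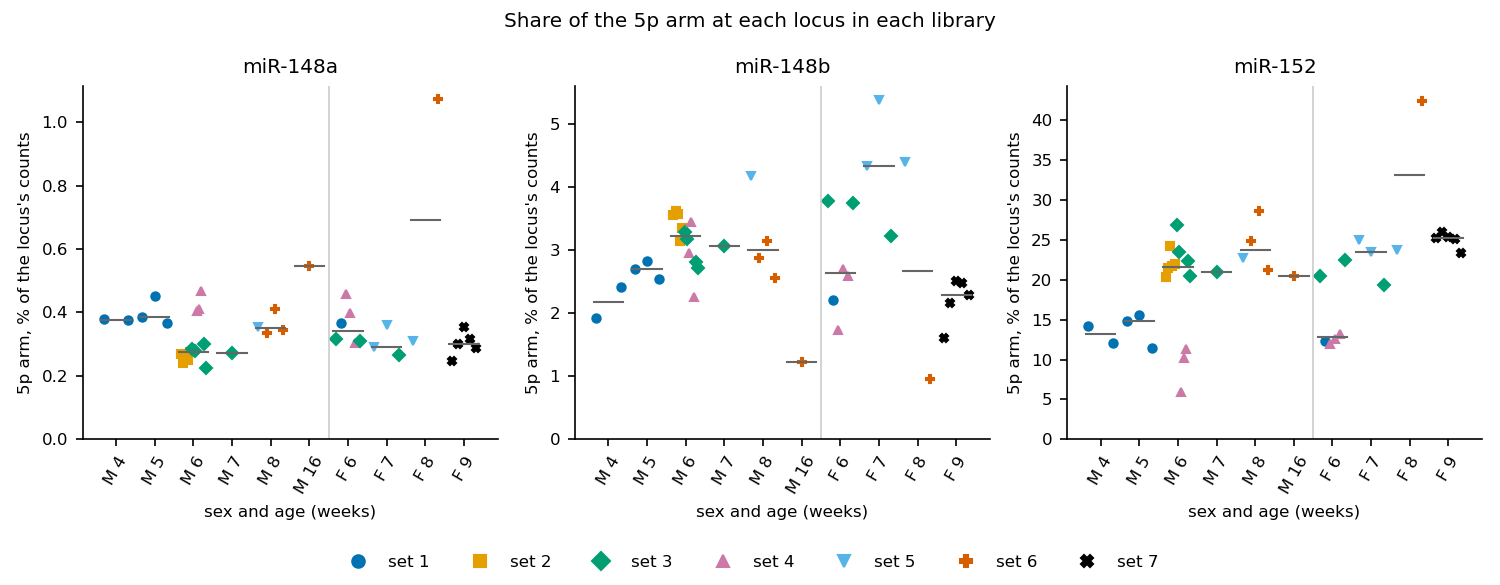
Share of the 5p arm in the counts of each locus, in percent, against sex and age in weeks; each point is 1 library, colour and shape give the library set, and the grey bar is the group median. At Mir152 the share is 20.3% on average, and it is at most 15.6% in sets 1 and 4, which are the lowest at that locus.

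The arms differed in how far the library set described them. On log2(CPM + 1), the variance between the 7 sets was 67.5% of the total for miR-152-3p, 62.2% for miR-148b-3p, 43.7% for miR-148a-5p, 36.3% for miR-148a-3p and 28.4% for miR-152-5p. The median over the 235 features with a mean of 20 CPM or more was 49.1%. The variance between the 10 age and sex groups was 47.0%, 45.3%, 30.7%, 46.6% and 32.7% for the same arms in the same order, with a median of 45.5%. miR-152-3p and miR-148b-3p thus followed the sets more than the middle feature did and the groups about as much, as a description with no test.

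Although they share a seed, the 3p arms did not track one another closely over the 39 libraries. Spearman's rho on log2(CPM + 1) was 0.33 between miR-148a-3p and miR-148b-3p, 0.55 between miR-148a-3p and miR-152-3p and 0.67 between miR-148b-3p and miR-152-3p. Between the arms of one hairpin, rho was 0.53 at Mir148a and 0.20 at Mir152. All libraries share the scaling by file total, so a few very abundant arms enter each of these values. With the mean of each library set subtracted first, a choice made after seeing the data, rho between miR-148a-3p and miR-148b-3p was 0.60, between miR-148a-3p and miR-152-3p 0.66 and between miR-148b-3p and miR-152-3p 0.44. It was then 0.58 between the arms of Mir148a and 0.59 between those of Mir152.

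The features most like each 3p arm lay outside the family. For miR-148a-3p they were miR-136-3p (rho 0.82), miR-30d-3p (0.81) and miR-450b-5p (0.81). For miR-148b-3p they were miR-141-3p (0.83), miR-127-3p (0.78) and a feature deposited as Gm24083-3p antisense (0.75). For miR-152-3p they were miR-322-3p (0.94), miR-27b-3p (0.88) and miR-223-3p (0.87). With set means subtracted, rho for miR-322-3p was 0.66 and for miR-141-3p 0.43, while for miR-450b-5p it was 0.87.

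The family's arms were also set beside other microRNAs published as repressors of DNA methyltransferase genes. In that list (miR-29, miR-101, miR-140, miR-143, miR-126, miR-185 and miR-342), 9 of 17 tested arms rose with age in males and 0 fell, with a median slope of 0.17 log2 per week against -0.00320 over all 346 features. The most abundant arms of that list were miR-143-3p, with a mean of 135011 CPM and a slope of -0.23 ± 0.21 (edgeR adjusted p = 0.40), and miR-126-5p, with 33537 CPM and 0.02 ± 0.06 (adjusted p = 0.792). The 9 that rose included miR-29a-3p (0.36 ± 0.05, adjusted p = 6.4e-06), whereas 8 of the 17 were not called. Over all 346 features 13.6% were called higher and 21.4% lower, and 0 were called with a term for the library set. In females 0 of 17 arms of the list were called, and in the sex comparison 0 of 17.

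Summed levels of marker lists of other cell types differed in several of the same contrasts, and tissue RNA cannot tell fewer cells of a type from less RNA per cell. The counts of called arms that follow stand against 13.6% of all features called higher and 21.4% lower in males, and 0 of 346 called with a term for the library set. In the white blood cell list (miR-223, miR-142, miR-150 and miR-155), miR-150-5p led with a mean of 846 CPM. miR-142-3p and miR-142-5p reached at most 0.0963 and 0.236 CPM in any library. In males of 4 to 5 weeks the 8 arms of that list summed to 511 to 679 CPM. At 8 weeks they summed to 1387 to 1855 CPM, with 2 of 3 tested arms called higher. The 4 arms of the smooth muscle list (miR-143 and miR-145) summed to 105550 to 131572 CPM and to 87417 to 94593 CPM, with 1 of 4 called lower. That sum is almost all miR-143-3p (mean 135011 CPM over the 39 libraries), whose own slope was not called. The next arm, miR-145-3p, averaged 822 CPM, so the sum reads 1 arm and not the list. The endothelial pair summed to 29034 to 41358 CPM and to 45250 to 51678 CPM, with 1 of 2 called higher, and the 10 arms of the fibroblast list to 6604 to 8848 CPM and to 10699 to 11775 CPM, with 2 called higher and 1 lower. The heart muscle list itself summed to 76213 to 97527 CPM and to 104582 to 114735 CPM, with 2 of 11 called higher and 1 lower. Most of that sum is miR-133a-2-3p (mean 75932 CPM over the 39 libraries). The fat list (miR-378a, miR-193 and miR-365) summed to 30872 to 40903 CPM and to 45915 to 53912 CPM, with 0 of 4 called. That sum is almost all miR-378a-3p (mean 51550 CPM over the 39 libraries), since the next arm, miR-365-2-3p, averaged 17.0 CPM. It therefore reads 1 arm and not the list. The sums of the red blood cell, liver and epithelial lists overlapped between these groups, with 1 of 6 called higher, 2 of 3 called lower and 1 of 3 called lower.

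In females the sums of both blood lists did not overlap between 6 and 9 weeks, the red one higher and the white one lower at 9 weeks. The red blood cell list summed to 56038 to 127155 CPM at 6 weeks and 163670 to 209313 CPM at 9 weeks, and the white blood cell list to 611 to 1235 CPM and 477 to 559 CPM. The red sum is mostly miR-486-5p and miR-486b-5p (means of 53832 and 58906 CPM over the 39 libraries), with miR-451-5p at 4057 CPM. The fat list summed to 35625 to 49173 CPM and to 30276 to 33607 CPM, while the other lists overlapped. Of all list arms tested in females, 1, miR-208b-3p of the heart muscle list, was called (-0.40 ± 0.10, edgeR adjusted p = 0.0366). Each of the 1684 features had a count in some library, so a count alone marks no cell type. In the liver list, miR-122a-5p reached at most 3.02 CPM. The part of cell makeup in the family's differences was not tested.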

How the data were processed

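Small RNA was sequenced on the Illumina HiSeq after library construction with TruSeq small RNA kits, per the labels' protocols. The authors deposited whole-number read counts per mature arm and strand, 1 file per library (1545 features in male files and 1451 in female files, on GRCm38), per the file headers. The submitters' processing notes name GRCm38, DESeq and edgeR; the aligner, and how reads matching several genes were assigned, stand in none of the sources used here. A feature that a file does not list was set to 0.

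Levels are CPM of the file total. Age slopes, the sex difference and the difference of slopes were fitted on counts with edgeR 4.0.16 (R 4.3.3; TMM factors, quasi-likelihood test) over features with 5 CPM or more in at least 5 libraries, with Benjamini-Hochberg adjustment over all features tested and a threshold of 0.05. The male of 16 weeks was left out of the slopes because 1 library would set them. SE and 95% intervals were derived from the F statistic. DESeq2 1.42.0, total counts, no filter, a replicate block, a library set term and omissions of libraries were the alternatives; 22, 16, 18 and 28 omissions were fitted. Ratios used counts + 0.5 and exact permutation tests over 18 comparisons. Library sets came from Ward clustering of the count shares of 7 pairs of genes with an identical mature sequence, cut at a chosen number of 7 sets. Simulated counts with known changes were used to test the male slope fit (18 of 22 changes of 0.25 log2 per week recovered over 344 features, and 18 of 18 of 0.5). These counts had the same dispersion for every feature and no library sets. They test the running of the fit and cannot show how it copes with the overlap of age and set. No 2 libraries of a group agreed within sampling noise (105 pairs; the chi-square statistic was at least 36.0 times its degrees of freedom). Fits cover counting error and spread between libraries; reads carry no molecular identifiers.

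All 6 arms were named, with the 3 most similar features per 3p arm and the 2 most abundant arms of the target list; a second target list is not reported here; other arms were named after their values were seen. The members, lists and tests were chosen with earlier results of these data known.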

Additional observations from a re-analysis of the deposited data

How the results depend on the processing

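The sign of the slope of miR-148b-3p in males was negative under all settings tried, from -0.24 to -0.20 log2 per week when each library was left out in turn. The count of features called in males (121) was 38 over 6 to 8 weeks and 0 when the set was a term or within set 1 or set 3. In females (10 called) it was 48 with DESeq2, 1 without a filter, 0 with the set term, 82 without female replicate 2 of 8 weeks and the dominated libraries, and 0 to 75 when 1 library was left out. For the difference of slopes (7 called) it was 0 with total counts, 25 with DESeq2, 1 without a filter, 94 with the set term, 1 without dominated libraries and 1 to 89 when 1 library was left out. The labels reuse replicate numbers. Over 81 pairs of same-numbered libraries the correlation of deviations from the group means ran from -0.47 to 0.40 (median -0.05), with 26 over 0.1. Pairs with unlike numbers were not compared, so this does not settle whether the numbers pair libraries. With a replicate block 95 features were called in males, 0 in females, 2 between the sexes and 0 for the difference of slopes. In that edgeR fit miR-148b-3p stayed called in males (-0.21, adjusted p = 0.0071) and miR-152-3p was called there (-0.24, adjusted p = 0.011).

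Values that changed sign were mostly near 0, and for none of them was the cause tested. In males they were, with the set term, 0.037 for miR-148a-5p, 0.14 for miR-148b-5p and 0.013 for miR-152-3p, and within set 1, where 4 and 5 weeks differ by 1 week, 0.035 for miR-148a-3p, 0.12 for miR-148a-5p, 0.28 for miR-148b-5p and 0.048 for miR-152-3p. miR-152-5p was -0.0083 over 6 to 8 weeks and -0.23 within set 3. In females miR-148a-3p was 0.0087 with DESeq2, 0.036 with the set term and 0.014 without female replicate 2 of 8 weeks and the dominated libraries (-0.028 to 0.021 with 1 library left out). miR-148b-3p was -0.030 with total counts and -0.040 with the set term, miR-152-3p 0.12 with the set term and miR-152-5p -0.036 with total counts. Between the sexes miR-148a-3p was 0.00044 with DESeq2, 0.064 without dominated libraries and 0.17 within set 4 (-0.048 to 0.023 with 1 left out), and miR-148b-3p was -0.062 with the set term and -0.21 within set 3. miR-148b-5p was 0.011 with DESeq2, 0.0076 without a filter, 0.024 without dominated libraries and 0.13 within set 3 (-0.033 to 0.097 with 1 left out). miR-152-3p was -0.29 with the set term, -0.0091 within set 3 and -0.53 within set 4, and miR-152-5p was 0.083 within set 4. For the difference of slopes miR-148b-3p was 0.18 with the set term, miR-148b-5p 0.0040 with DESeq2 (-0.24 to 0.15 with 1 left out) and miR-152-5p -0.082 with total counts, -0.0097 without a filter, -0.050 with the set term and -0.035 without dominated libraries (-0.020 to 0.13 with 1 left out). With 1 library left out that of miR-148a-3p ran from -0.51 to 0.094.

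Adding 1 in place of 0.5 to the counts moved no ratio past or off the threshold. Males of 8 against 6 weeks gave 0.032 for miR-148a-3p per miR-148b-3p, 0.22 for miR-148a-3p per miR-152-3p and -0.54 for the 3p to 5p ratio of miR-152, none called, and -0.28 for that of miR-148a. With 1 library left out, the male differences ran from 0.40 to 0.58, from 0.53 to 0.66 and from -1.11 to -0.92 for the 3 called ratios and from -0.46 to -0.22 for miR-148b-3p to 5p. Between the sexes miR-148b-3p per miR-152-3p was 0.032 without dominated libraries (-0.12 to 0.045 with 1 left out), and the within-set mean for miR-148b-3p to 5p was -0.015, from -0.35 in set 3 and 0.32 in set 4. Fits within sets 3 and 5 in females had too few libraries and were not run. Depth limits miR-148b-5p most, with 9 counts in the shallowest library.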
